A study of Mus musculus with 9 samples.

Results

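The epidermal lipid barrier genes described here are 31 genes that make, package or process the lipids of the outer skin. They were found by matching their symbols to the gene identifiers of the deposited count table, and all 31 were among its 49671 genes. The study asked how loss of filaggrin, the Flg product and a structural protein of the cornified layer, changes keratinocyte gene expression. Mouse skin cells without the leukocyte marker CD45 and with CD49f, the integrin alpha-6 chain of basal keratinocytes, were sorted, and their polyadenylated RNA was amplified and sequenced. There were 5 libraries of Flg genotype wt/wt and 4 of ko/ko, none treated. The sources used here do not name the type of the ko allele, the strain, age and sex of the mice or the skin site.

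Keratinocytes of the upper epidermis build ceramides from a sphingoid base and very long fatty acids. Glucosylated ceramides are packed into lamellar bodies, released at the border of the cornified layer and turned back into ceramides. In a special class, the acylceramides, the end of the fatty acid is hydroxylated and esterified with linoleate, which lipoxygenases oxidise before the lipid is bound to the cornified envelope. Loss of several of these genes causes ichthyosis, a scaling skin disease.

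Library totals ran from 15601859 to 23200440 counts, so that 3 counts equalled 0.129 to 0.192 per 1000000 counts of these totals. CPM here are counts scaled to a library of 1000000 after TMM adjustment of the library sizes. On that scale 3 counts differ somewhat: those of Pla2g4e in ko/ko replicate 1 were 0.173 CPM, where the total gives 0.192. Counts of Flg were 0, 0, 6, 2 and 4 in the wt/wt libraries and 2, 0, 0 and 4 in the ko/ko libraries, too few to check the labels. Markers fitted the sort only in part: fibroblast genes took 2.83% to 6.04% of counts, basal keratinocyte genes 0.139% to 0.331% and suprabasal keratinocyte genes 0.0245% to 0.0426%. Gsn and Dcn made up most of the fibroblast sum, averaging 23677 and 15946 CPM in wt/wt and 23889 and 17101 CPM in ko/ko. Dcn alone had at least 10868 CPM in every library, and Krt14, the highest basal gene, at most 1834. Of the suprabasal list, Dsc1, Lor and Flg lay under 1 CPM in every library. Sebaceous gland genes took 0.0219% to 0.0394%. None of 10 marker lists passed a comparison of the genotypes by an exact two-sided permutation test (adjusted p from 0.476 to 0.944; smallest unadjusted p possible 0.00794). After adjustment over the 10 lists, a list differing alone could not have reached 0.05, so this comparison cannot show that the lists were alike. The immune list came nearest, at 0.00553% of counts in wt/wt and 0.0151% in ko/ko (exact permutation p = 0.0476). All 7 of its tested genes had positive log2 fold changes of ko/ko over wt/wt, from 0.41 (Lyz2) to 4.06 (Cd74). Ptprc had 0.0508 to 0.864 CPM in wt/wt and 0.910 to 7.17 in ko/ko. It did not overlap, as for 3.51% of all genes tested that were higher. None of the 7 passed (edgeR adjusted p from 0.131 to 0.700). Each share is a sum of counts, so abundant genes weigh most, and single genes could differ more. Itga6, for the integrin sorted on, averaged 53.4 CPM in wt/wt and 83.0 in ko/ko, with overlap (edgeR adjusted p = 0.157). Of 10 basal genes, 8 had positive and 2 negative log2 fold changes. Lyve1 of the endothelial list was lower in every ko/ko library, averaging 52.2 against 161 CPM (edgeR adjusted p = 0.0951). Of 6 endothelial genes, 3 were positive and 3 negative. In RNA from such a mixed sample, fewer cells of a type and less RNA per cell cannot be told apart.

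The members covered a wide range of levels, and most of the acylceramide, lipoxygenase and phospholipase genes were low. Levels between genes are given as CPM per kb of exon length, averaged over the 9 libraries. Degs1 was highest at 227 CPM per kb, above 98.7% of the genes tested, and Alox12b was lowest at 0.0575. The median over all genes tested was 3.28 CPM per kb; 16 members lay above it and 15 below. Below it were all 4 members of the lipoxygenase and linoleate oxidation step, all 3 phospholipases and 3 of the 4 acylceramide assembly genes. By contrast, only 2 of the 7 ceramide synthesis genes, 1 of the 5 elongation and fatty acid activation genes and 0 of the 3 ceramide release and turnover genes lay below it. As fibroblast markers outweighed keratinocyte markers in every library, these are levels of a mixed sample. The part of each cell type in them was not tested.

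**Figure D1:**
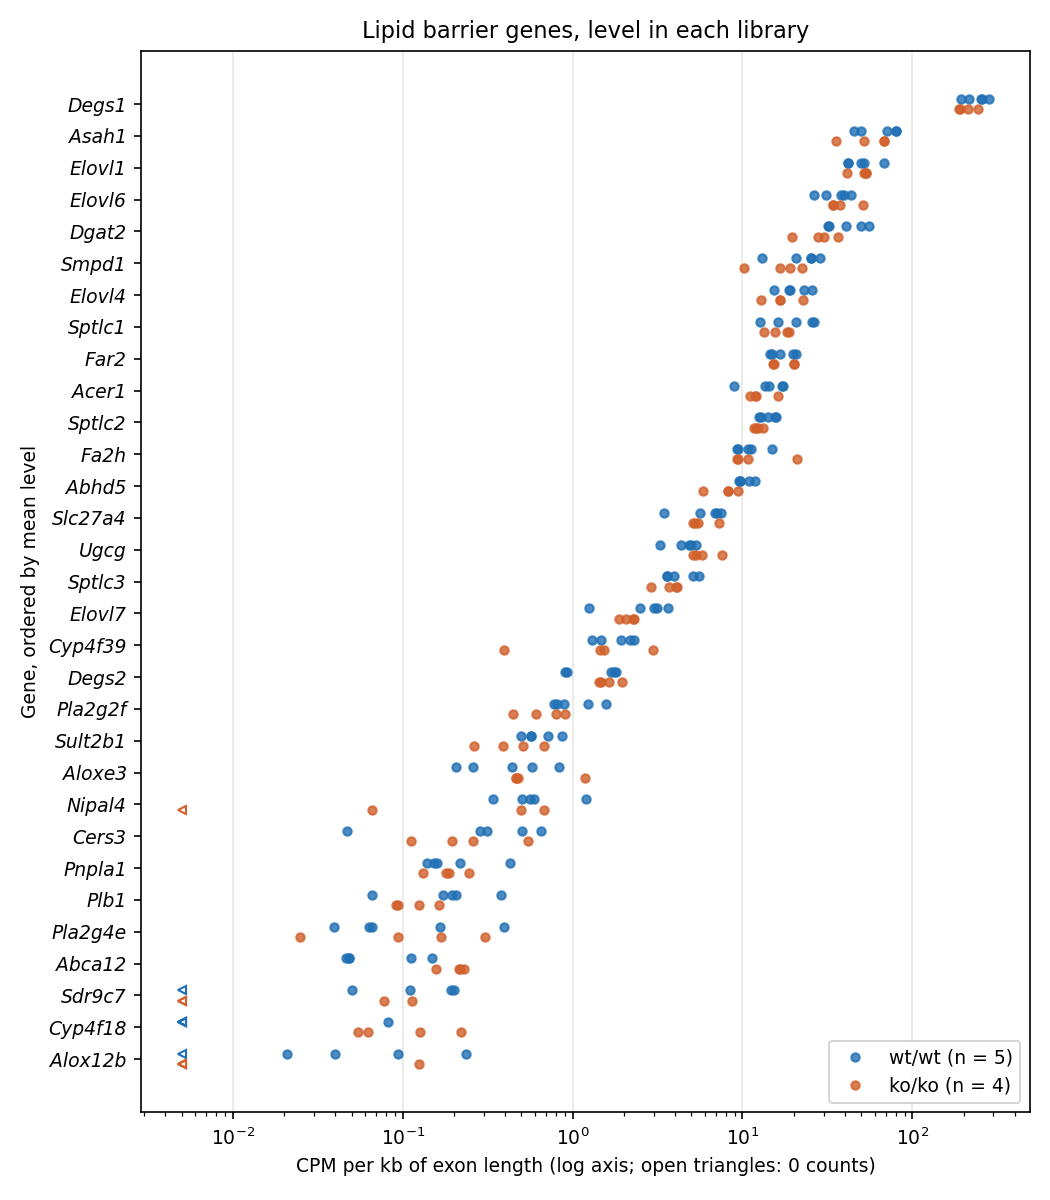
Level of each of the 31 members in CPM per kb of exon length (log axis), 1 point per library, wt/wt in blue (n = 5) and ko/ko in orange (n = 4), with open triangles for libraries with 0 counts. The genes run from Degs1, with a mean of 227, to Alox12b, with 0.0575, and the points of both genotypes intermingle for most genes.

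Neighbours in this order were mostly within each other's spread. After Degs1 came Asah1 at 61.0, Elovl1 at 50.4, Elovl6 at 37.3, Dgat2 at 36.0, Smpd1 at 20.1, Elovl4 at 18.9 and Sptlc1 at 18.6 CPM per kb. Of the 30 pairs of neighbours, 4 stood in the same order in all 9 libraries: Degs1 above Asah1, Dgat2 above Smpd1, Abhd5 above Slc27a4 and Pla2g2f above Sult2b1. In 3 pairs the difference of the means exceeded the sum of the SDs, namely Degs1 and Asah1, Abhd5 and Slc27a4, and Sptlc3 and Elovl7. Dgat2 exceeded Smpd1 in every library although their summed SDs were larger than the difference.

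No member passed the test between genotypes after adjustment. Of the 31 members, 28 were expressed enough to be tested, and 0 of them passed an edgeR adjusted p of 0.05, where 0.00542% of the 18435 genes tested were called higher and 0% lower. At an unadjusted p under 0.05, Abca12 was higher in ko/ko and Abhd5 and Dgat2 were lower, which is 3 of 28 members against 15.3% of all genes (8.86% higher and 6.42% lower). DESeq2 called 0 members, where it called 2.28% of genes higher and 0.784% lower. By limma voom with sample quality weights 1 member, Abca12, was higher, where 6.6% of genes were called higher; 0 members were lower there, against 3.17% of genes. The log2 fold change of ko/ko over wt/wt was positive for 8 members and negative for 20, with a median of -0.22. Among all genes tested 52.6% were negative, with a median of -0.03. These splits moved with the scaling: with library totals alone 40.9% of genes and 18 of 28 members were negative, and after correction for exon length 59.2% of genes and 22 members. The labels do not say that the libraries came from separate mice, although each title has its own identifier, so the p-values cover the spread between these libraries.

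**Figure D2:**
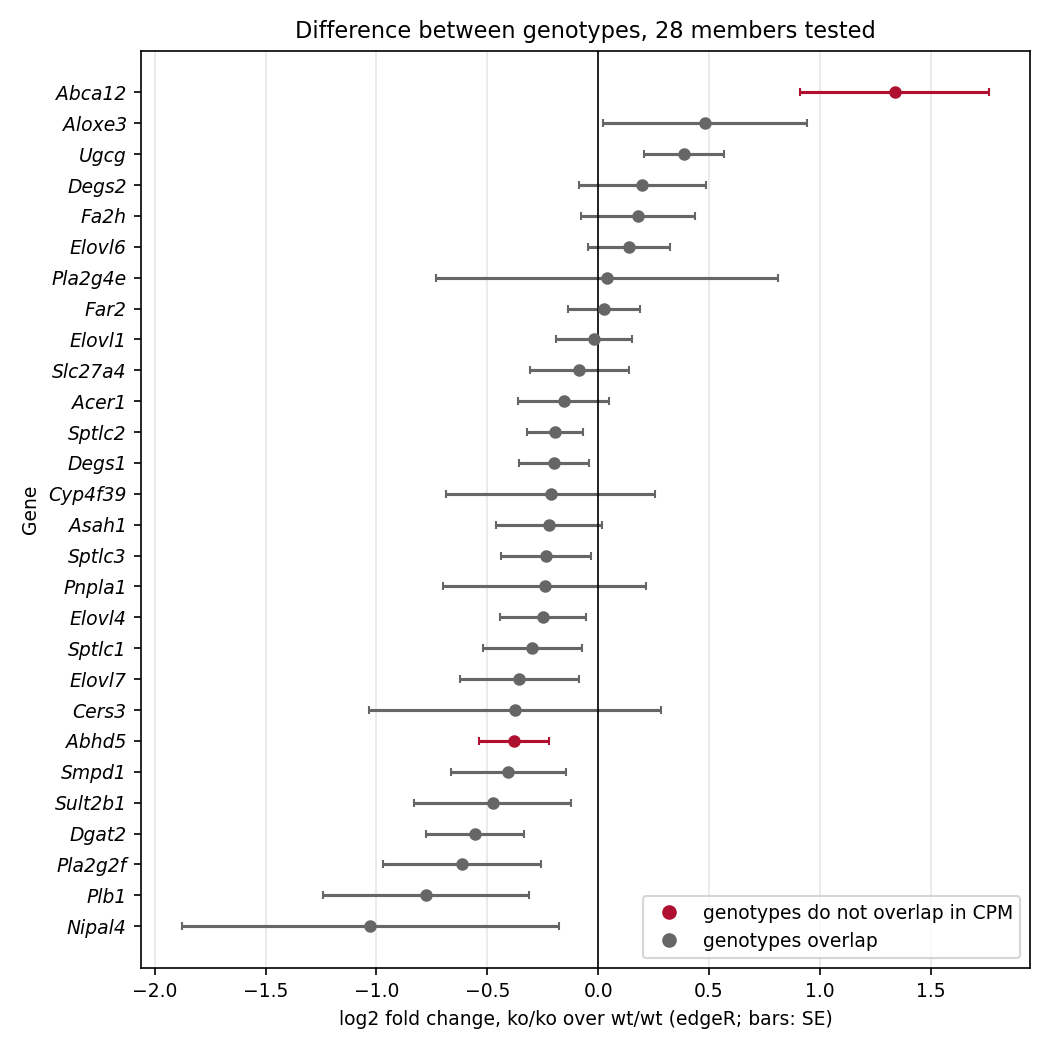
Log2 fold change of ko/ko over wt/wt for the 28 members tested, from edgeR, with bars of 1 SE; red marks the members whose genotypes do not overlap in CPM. Abca12 at 1.34 is the highest and Nipal4 at -1.03, with an SE of 0.85, is the lowest.

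Ceramide synthesis begins with serine palmitoyltransferase, made of the Sptlc1 subunit and either Sptlc2 or Sptlc3. Sptlc1 had 32.9, 42.2, 53.6, 67.2 and 69.0 CPM in wt/wt replicates 1 to 5, and 34.7, 40.7, 49.2 and 47.7 CPM in ko/ko replicates 1 to 4. Sptlc2 had 104, 127, 115, 101 and 126 CPM in wt/wt and 100, 95.4, 97.8 and 107 in ko/ko. Sptlc3 had 14.5, 15.7, 11.2, 10.2 and 10.2 CPM in wt/wt and 10.5, 8.20, 11.8 and 11.6 in ko/ko. The genotypes overlapped for all 3 subunits, whose log2 fold changes were -0.30 (SE 0.22), -0.20 (SE 0.13) and -0.23 (SE 0.20), with edgeR adjusted p of 0.546, 0.481 and 0.606. Sptlc2 exceeded Sptlc3 per kb in every library, by a ratio of 2.51 to 4.31.

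The promoters of these alternative subunits differed in CpG content, so both are shown, from RefSeq on GRCm38.p6, each running 250 bases before to 50 after the gene's start. Capitals mark CpG dinucleotides. The Sptlc2 window, chr12:87388306-87388605 on the minus strand, has 19, and the Sptlc3 window, chr2:139493663-139493962 on the plus strand, has 1.
Sptlc2: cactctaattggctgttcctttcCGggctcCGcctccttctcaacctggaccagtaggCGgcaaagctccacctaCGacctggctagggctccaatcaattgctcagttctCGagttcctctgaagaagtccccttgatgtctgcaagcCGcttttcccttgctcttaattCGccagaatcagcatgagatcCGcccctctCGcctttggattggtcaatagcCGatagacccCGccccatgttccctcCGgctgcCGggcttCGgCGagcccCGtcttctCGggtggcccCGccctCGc
Sptlc3: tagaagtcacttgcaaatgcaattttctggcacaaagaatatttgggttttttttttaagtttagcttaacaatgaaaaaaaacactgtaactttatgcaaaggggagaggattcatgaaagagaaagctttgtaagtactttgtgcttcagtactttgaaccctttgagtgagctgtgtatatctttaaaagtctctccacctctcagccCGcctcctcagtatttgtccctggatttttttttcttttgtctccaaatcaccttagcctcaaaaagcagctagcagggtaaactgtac

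The desaturases Degs1 and Degs2 place the double bond or an added hydroxyl group in the sphingoid base. Degs1 had 557, 501, 653, 735 and 667 CPM in wt/wt and 495, 553, 489 and 634 in ko/ko, giving -0.20 as log2 fold change (SE 0.16) and 0.572 as edgeR adjusted p. Degs2 had 6.0, 6.44, 3.22, 3.30 and 6.29 CPM in wt/wt and 6.99, 5.25, 5.11 and 5.87 in ko/ko, giving 0.20 as log2 fold change (SE 0.29) and 0.775 as edgeR adjusted p. Both overlapped between genotypes. Per kb, Degs1 exceeded Degs2, which is tied to the phytoceramides of the epidermis, by 97.6 to 307 times, with a median of 145. Degs2 shares 485 exonic bases with Evl on the opposite strand, which had 489 counts over all libraries against 982 for Degs2. The sources used here do not say whether counting used strand, so reads there cannot be told apart.

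The other ceramide synthesis members are Cers3, which joins very long acyl chains to the base, and Fa2h, which hydroxylates the acyl chain. Cers3 was low, at 0.153 to 2.11 CPM in wt/wt and 0.362 to 1.77 in ko/ko. Fa2h had 27.9 to 44.7 CPM in wt/wt and 27.9 to 63.3 in ko/ko. Its highest library was ko/ko replicate 1, and its log2 fold change of 0.18 was -0.18 without that library.

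Among the elongases, which lengthen fatty acids, the mean levels per kb were ordered Elovl1, Elovl6, Elovl4 and Elovl7. In CPM, without the exon length, Elovl6 exceeded Elovl1 in every library. Per kb the ratio of Elovl6 to Elovl1 ran from 0.455 to 1.24, and Elovl1 was the higher in 8 of 9 libraries. Elovl1, for saturated very long chains, had 186, 142, 136, 114 and 114 CPM in wt/wt and 145, 142, 113 and 146 in ko/ko. Elovl6, which extends palmitate, had 199, 280, 254, 243 and 171 CPM in wt/wt and 240, 220, 330 and 221 in ko/ko. Both overlapped between genotypes, with log2 fold changes of -0.02 (SE 0.17) and 0.14 (SE 0.19), and both signs changed in other settings. Elovl4, for the ultra-long chains of acylceramides, had 57.1, 69.9, 46.2, 77.4 and 57.7 CPM in wt/wt and 68.3, 50.2, 50.4 and 38.6 in ko/ko. Elovl7 had 6.81, 17.2, 13.5, 19.9 and 16.4 CPM in wt/wt and 12.4, 12.4, 11.2 and 10.2 in ko/ko. For Elovl4 and Elovl7 the log2 fold changes were -0.25 (SE 0.20) and -0.35 (SE 0.27), and the genotypes again overlapped. Elovl1 exceeded Elovl4 per kb by 1.63 to 4.19 times. Slc27a4, a fatty acid transporter and acyl-CoA synthetase, had 15.2 to 33.0 CPM in wt/wt and 22.5 to 32.0 in ko/ko.

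Abhd5, a coactivator of lipases and of Pnpla1, was the 1 member whose ko/ko values all lay below those of wt/wt; 2.74% of all genes tested did so. It had 57.3, 57.2, 57.0, 64.8 and 70.5 CPM in wt/wt and 34.9, 55.9, 48.9 and 48.9 in ko/ko. The gap was narrow, as ko/ko replicate 2 had 55.9 and wt/wt replicate 3 had 57.0. The means were 61.4 ± 6.08 (SD, n = 5) and 47.1 ± 8.84 CPM (SD, n = 4), giving -0.38 as log2 fold change (SE 0.16), which did not pass (edgeR adjusted p = 0.287). Over the other settings it lay between -0.47 and -0.25. Abhd5 (ENSMUSG00000032540, protein-coding, mm10 chr9:122351608-122381524 on the plus strand) shares 950 exonic bases with A730085K08Rik on the opposite strand, which had 163 counts over all libraries against 10145 for Abhd5.

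The other acylceramide assembly genes were low. Cyp4f39, the fatty acid omega-hydroxylase, had 2.08 to 3.65 CPM in wt/wt and 0.634 to 4.74 in ko/ko. Pnpla1, the transacylase that adds linoleate, had 0.625 to 1.93 CPM in wt/wt and 0.589 to 1.10 in ko/ko. Their genotypes overlapped, with log2 fold changes of -0.21 (SE 0.47) and -0.24 (SE 0.46). Cyp4f18, a related P450 enzyme grouped with them here, was too low to be tested, with 3 counts in the pooled wt/wt and 18 in the pooled ko/ko libraries. The ratio of pooled CPM, ko/ko over wt/wt, was 7.63 (exact 95% interval 2.23 to 40.5, counting error only). All 3 wt/wt counts came from replicate 1, the other wt/wt libraries were at 0, and 9 of the 18 ko/ko counts came from replicate 2. Of its exonic bases, 181 overlap Zfp961 on the opposite strand, which had 1495 counts over all libraries against 21 for Cyp4f18.

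Of the lipoxygenases, which oxidise linoleate in acylceramides, Aloxe3 acts after Alox12b and had the higher level. Aloxe3 had 5.29, 3.70, 2.83, 1.32 and 1.65 CPM in wt/wt and 7.57, 2.99, 3.05 and 2.98 in ko/ko, giving 0.48 as log2 fold change (SE 0.46) and 0.642 as edgeR adjusted p. Without ko/ko replicate 1, its highest library, the log2 fold change was 0.02. Alox12b had 0, 0.577, 0.0977, 0.0508 and 0.230 CPM in wt/wt and 0, 0, 0 and 0.303 in ko/ko. The genotypes overlapped for both genes, and Alox12b was listed at 0 in 4 of 9 libraries. Pooled counts of Alox12b were 20 in wt/wt and 6 in ko/ko, a ratio of 0.382 (exact 95% interval 0.125 to 0.985, counting error only). Of these, 12 came from wt/wt replicate 2 and all 6 from ko/ko replicate 4.

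Sdr9c7, a dehydrogenase acting on the oxidised linoleate, had 34 pooled counts in wt/wt and 11 in ko/ko and was not tested. Its ratio was 0.412 (exact 95% interval 0.188 to 0.832, counting error only), with 0 counts in 3 of 9 libraries, wt/wt replicate 5 among them. Nipal4, a membrane protein that is mutated in ichthyosis, had 1.17 to 4.13 CPM in wt/wt and 0 to 2.34 in ko/ko, a log2 fold change of -1.03 (SE 0.85). Its ko/ko libraries divided into replicates 1 and 2, at 0 and 0.226 CPM, and replicates 3 and 4, at 2.34 and 1.72.

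Both lamellar packaging members had higher means in ko/ko. Abca12, the transporter that loads lipids into lamellar bodies, had 0.712, 2.21, 1.66, 0.712 and 0.689 CPM in wt/wt and 3.41, 3.22, 3.19 and 2.33 in ko/ko. Every ko/ko library lay above every wt/wt library, as for 3.51% of all genes tested, although ko/ko replicate 4, at 2.33, was close to wt/wt replicate 2, at 2.21. The means were 1.20 ± 0.702 (SD, n = 5) and 3.03 ± 0.483 CPM (SD, n = 4), giving 1.34 as log2 fold change (SE 0.43) and 0.206 as edgeR adjusted p. The adjusted p was 0.0555 by DESeq2 and 0.0238 by limma voom, where the log2 fold change was 1.46. Over all settings it lay between 1.02, after correction for exon length in each library, and 1.68, without wt/wt replicate 2. The gene (ENSMUSG00000050296, protein-coding, mm10 chr1:71242276-71414910 on the minus strand) has the longest exon length of the members, 14808 bases, and its level rested on 123 counts in wt/wt and 244 in ko/ko.

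Abca12 was also set against the counts of basal and suprabasal keratinocyte markers, for 4 members chosen after their values were seen. Per 1000 such marker counts it had 0.324 to 0.882 in wt/wt and 1.01 to 1.62 in ko/ko, without overlap; as Abca12 was picked for its difference, this is a description with no test. On that scale the genotypes overlapped for the other 3, Abhd5, Dgat2 and Ugcg. The share of the suprabasal list was 0.0323% of counts in wt/wt and 0.0332% in ko/ko, and of its 10 tested genes 6 had positive and 4 negative log2 fold changes. Of these, Krt1 was higher in every ko/ko library, at 10.3 ± 3.65 CPM (SD, n = 4) against 4.97 ± 1.13 (SD, n = 5), though it did not pass (edgeR adjusted p = 0.154). Sbsn was lower in every ko/ko library, at 32.9 ± 2.25 (SD, n = 4) against 43.3 ± 6.83 CPM (SD, n = 5), and did not pass either (edgeR adjusted p = 0.249). Krtdap, with -0.42 as log2 fold change, and Krt10 overlapped; Krt10 was at 44.1 ± 13.2 (SD, n = 4) against 41.8 ± 5.94 CPM (SD, n = 5). The part of these markers in the Abca12 values was not tested.

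Ugcg, which glucosylates ceramide for packaging, had 25.8, 25.3, 27.7, 22.7 and 17.0 CPM in wt/wt and 26.7, 39.4, 30.3 and 27.6 in ko/ko. Its genotypes overlapped only between 26.7 and 27.7 CPM. The log2 fold change was 0.39 (SE 0.18, edgeR adjusted p = 0.340) and lay between 0.25 and 0.59 in the other settings.

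**Figure D3:**
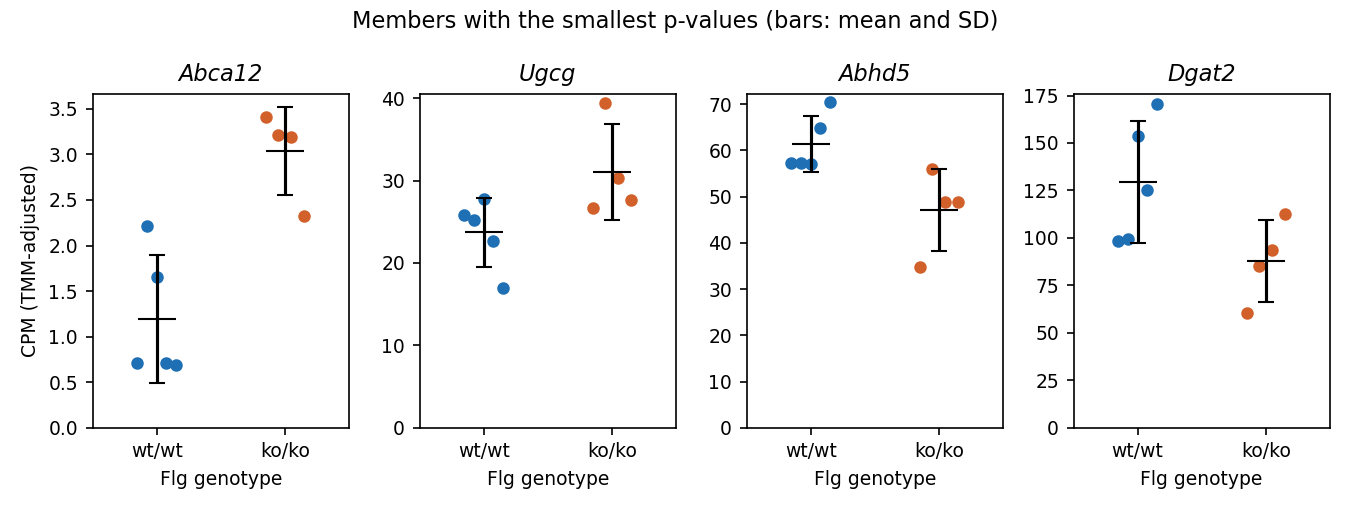
CPM of Abca12, Ugcg, Abhd5 and Dgat2, the 4 members with the smallest edgeR p-values, 1 point per library (wt/wt, n = 5; ko/ko, n = 4), with the mean and SD; each panel has its own axis from 0. Abca12 and Abhd5 have no overlap between genotypes, with gaps of 2.21 to 2.33 and 55.9 to 57.0 CPM, while Ugcg and Dgat2 overlap.

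The promoters of the 2 members without overlap are shown because their CpG content is far apart. Capitals again mark CpG dinucleotides. Abhd5, chr9:122351366-122351665 on the plus strand, has 32, and Abca12, chr1:71414861-71415160 on the minus strand, has 6.
Abhd5: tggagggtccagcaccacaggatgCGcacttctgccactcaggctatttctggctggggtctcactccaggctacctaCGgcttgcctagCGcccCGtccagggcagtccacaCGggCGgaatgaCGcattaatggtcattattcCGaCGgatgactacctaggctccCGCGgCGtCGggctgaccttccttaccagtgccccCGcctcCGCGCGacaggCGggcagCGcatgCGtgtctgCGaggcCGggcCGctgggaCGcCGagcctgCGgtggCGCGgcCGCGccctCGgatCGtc
Abca12: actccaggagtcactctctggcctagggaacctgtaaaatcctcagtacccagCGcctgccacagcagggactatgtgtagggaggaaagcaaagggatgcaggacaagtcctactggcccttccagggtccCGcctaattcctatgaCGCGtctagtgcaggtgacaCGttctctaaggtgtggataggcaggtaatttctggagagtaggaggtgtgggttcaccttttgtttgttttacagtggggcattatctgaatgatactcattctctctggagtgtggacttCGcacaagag

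The 3 ceramide release and turnover genes had negative log2 fold changes and overlapping genotypes. Smpd1, the acid sphingomyelinase, had 68.5, 43.3, 84.7, 84.8 and 95.4 CPM in wt/wt and 34.2, 63.2, 55.8 and 74.4 in ko/ko, giving -0.40 as log2 fold change (SE 0.26) and 0.478 as edgeR adjusted p. Asah1, the acid ceramidase, had 153, 169, 239, 273 and 270 CPM in wt/wt and 120, 231, 177 and 231 in ko/ko, giving -0.22 as log2 fold change (SE 0.24) and 0.693 as edgeR adjusted p. Acer1, the alkaline ceramidase of differentiating epidermis, had 21.7 to 41.9 CPM in wt/wt and 26.9 to 39.2 in ko/ko, with a log2 fold change of -0.16 (SE 0.20). Asah1 exceeded Acer1 per kb by 2.99 to 6.16 times. None of 7 per-kb ratios between related members, chosen in part after their values were seen, passed a test between genotypes (exact permutation test, adjusted p of 0.992 for each).

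Smpd1 and Degs1 were lowest in the same 3 libraries, wt/wt replicate 2 and ko/ko replicates 1 and 3. These have the highest basal keratinocyte shares, at 0.331%, 0.283% and 0.296%, with 0.195% the next. The same 3 libraries held the 3 lowest values for 2 of 28 members (7.14%) and 2.68% of all genes tested, and the 3 highest for 0 members and 3.14% of genes. The part of the basal share in these levels was not tested.

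Of the sterol, neutral lipid and wax genes, Dgat2, which makes triglycerides, had 98.3, 99.3, 154, 125 and 171 CPM in wt/wt and 60.6, 85.3, 93.6 and 112 in ko/ko. Only ko/ko replicate 4 reached into the wt/wt range. The log2 fold change was -0.56 (SE 0.22, edgeR adjusted p = 0.272) and stayed between -0.70 and -0.42 in the other settings. Sebaceous cells and adipocytes also express Dgat2. Of the 7 sebaceous markers 3 had positive and 4 negative log2 fold changes, from -0.90 (Awat2) to 0.84 (Mc5r), and all overlapped between genotypes; their share was 0.0305% of counts in wt/wt and 0.0302% in ko/ko. All 6 adipocyte markers were negative, from -0.14 (Plin1) to -3.97 (Lep, 0.480 to 2.59 CPM in wt/wt and 0 to 0.253 in ko/ko, edgeR adjusted p = 0.153). The adipocyte share was 0.00492% of counts in wt/wt and 0.00333% in ko/ko, overlapping at 0.00255% to 0.00804% and 0.00139% to 0.00633%. The part of either cell type in the Dgat2 values was not tested. Sult2b1, the cholesterol sulfotransferase, had 3.41, 2.84, 1.95, 2.24 and 2.25 CPM in wt/wt and 1.04, 1.54, 2.67 and 2.02 in ko/ko, giving -0.48 as log2 fold change (SE 0.35) and 0.542 as edgeR adjusted p. Far2, a reductase that makes fatty alcohols for waxes, had 106 to 150 CPM in wt/wt and 110 to 147 in ko/ko. Far2 shares 918 exonic bases with genes on the opposite strand, among them Ergic2. The most abundant of these had 21438 counts over all libraries against 23258 for Far2. As the use of strand in counting is not given, the level of Far2 may be too high or too low.

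The phospholipases, which release fatty acids from phospholipids, were low. Plb1 had 4.42, 0.769, 2.00, 2.29 and 2.39 CPM in wt/wt and 1.10, 1.90, 1.45 and 1.06 in ko/ko, giving -0.78 as log2 fold change (SE 0.47) and 0.448 as edgeR adjusted p. Pla2g2f, a secreted enzyme of the upper epidermis, had 2.19, 1.92, 2.00, 3.05 and 3.86 CPM in wt/wt and 1.10, 1.49, 1.97 and 2.23 in ko/ko, giving -0.61 as log2 fold change (SE 0.36) and 0.436 as edgeR adjusted p. Both overlapped between genotypes. Pla2g4e had 0.275 to 2.75 CPM in wt/wt and 0.173 to 2.13 in ko/ko, and its log2 fold change of 0.04 (SE 0.77) was -0.58 without ko/ko replicate 2.

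Promoter windows were matched for 27 members, and 24 of them began within 1000 bases of the gene's start in the authors' table. Members at higher levels had a higher median CpG count in this window. The 13 members above the median level of tested genes had a median of 20 CpG, from 1 in Sptlc3 to 53 in Ugcg, and the 11 below it had a median of 7, from 2 in Sdr9c7 to 30 in Elovl7. Over all tested genes with such a window the medians were 21 above and 18 below that level. The sets are unlike, as the 11 lower members include Sdr9c7, Cyp4f18 and Alox12b, which were not tested. Degs1 and Degs2 each had 21 despite their unequal levels, and Alox12b, the lowest member, had 15. The motif GGGCGG, which itself holds a CpG, was searched on either strand. It was in 9 of the 13 higher and 5 of the 11 lower members, the untested Cyp4f18 and Alox12b among them. It was in 67.6% of tested genes above that level, 58.4% of those below it and 44.0% of all promoters in the table. TATAAA, on either strand, was in 1 member, the untested Sdr9c7, in 7.50% of tested genes above that level and 7.82% below it, and in 13.0% of all promoters.

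**Figure D4:**
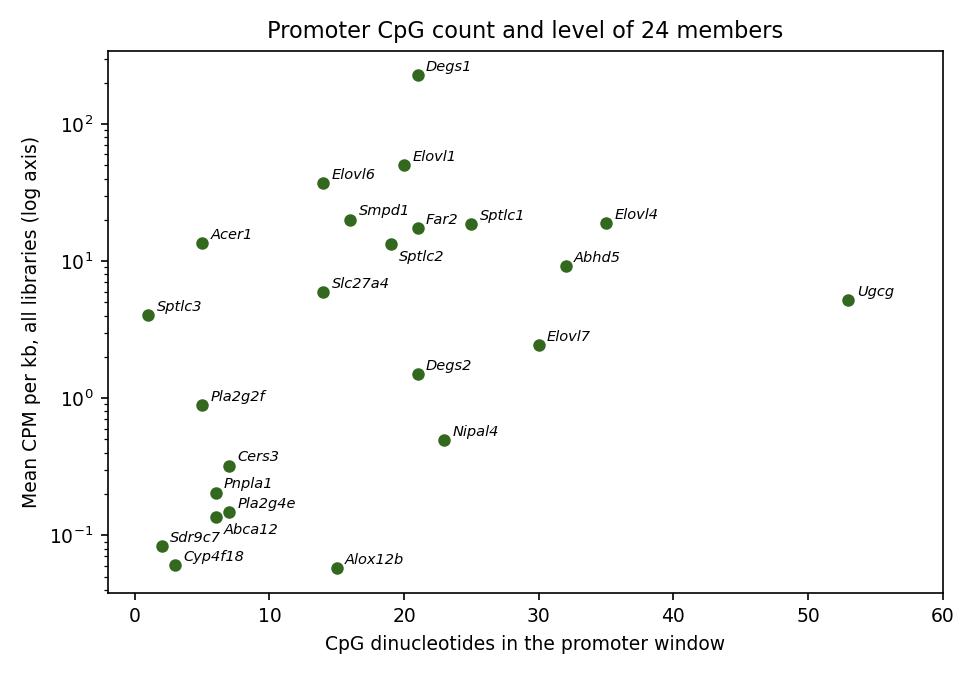
Mean level over 9 libraries (CPM per kb, log axis) against the number of CpG dinucleotides in the promoter window for 24 members, 1 point per gene. Members with up to 7 CpG include Sdr9c7, Cyp4f18 and Abca12 at low levels but also Acer1 at 13.6, and Ugcg stands apart at 53 CpG.

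Other genes of the same pathways were read from 6 lists, and 0 of their 110 tested genes were called by edgeR. At an unadjusted p under 0.05, 9 were higher and 6 lower in ko/ko, where 8.86% and 6.42% of all genes were. Genes named below as without overlap stand against 3.51% of all genes without overlap and higher and 2.74% lower. Of 30 tested sphingolipid genes 12 had positive and 18 negative values, with a median log2 fold change of -0.11. Sgpp1, a sphingosine-1-phosphate phosphatase, had 37.0 ± 4.76 CPM (SD, n = 4) in ko/ko and 21.2 ± 7.55 (SD, n = 5) in wt/wt, without overlap (edgeR adjusted p = 0.194). Of 22 fatty acid genes 8 were positive and 14 negative, with a median of -0.22. Acsl1, an acyl-CoA synthetase, had the smallest p of these, at 27.4 ± 5.18 CPM (SD, n = 4) in ko/ko against 46.1 ± 4.37 (SD, n = 5), without overlap (log2 fold change -0.75, SE 0.16, edgeR adjusted p = 0.129). The 22 neutral lipid and phospholipase genes had a median of -0.14, the 7 lipoxygenase and epoxide hydrolase genes 0.09 and the 9 lamellar body and lipid transport genes 0.04. Of these 9, 5 were positive and 4 negative. Abca1 and Abca5, transporters related to Abca12, gave 0.51 (SE 0.20) and 0.68 (SE 0.27) as log2 fold change, and both overlapped between genotypes. Abca2, of the same family, gave 0.15 (SE 0.18) and Snap29 gave -0.32 (SE 0.27), also with overlap.

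Among 20 regulators, 11 were positive and 9 negative, with a median of 0.13. Srebf1, which drives fatty acid synthesis genes, had 93.2 ± 27.0 CPM (SD, n = 4) in ko/ko against 159 ± 27.1 (SD, n = 5), without overlap (log2 fold change -0.77, SE 0.21, edgeR adjusted p = 0.166). Cebpa and Klf4, both active in epidermal differentiation, lay higher in every ko/ko library, with log2 fold changes of 0.68 (SE 0.17) and 0.55 (SE 0.18) and edgeR adjusted p of 0.152 and 0.211. Srebf2 gave -0.47 (SE 0.18, edgeR adjusted p = 0.256), with overlap between genotypes. Rora gave 0.28 (SE 0.13, edgeR adjusted p = 0.326) and was higher in every ko/ko library. Other regulators went either way: Grhl3 gave -0.90 (SE 0.69) and Zfp750 gave 0.54 (SE 0.36), both with overlap between genotypes.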

How the data were processed

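Raw read counts and an exon length for each gene were deposited; the authors made them with GSNAP and featureCounts 1.6.2 on mm10, per the submitters' processing notes. How strand, multi-mapped and duplicate reads were treated is not given in the sources used here. Of 49763 table entries, 92 spike-in sequences were left out. Symbols came from GENCODE M21 by gene identifier (49412 matched).

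Counts were analysed with edgeR 4.0.16 in R 4.3.3: genes were filtered with filterByExpr and scaled with TMM, and genotype was tested two-sided by the robust quasi-likelihood F test, with Benjamini-Hochberg adjustment over 18435 genes and a threshold of 0.05. The code was tested on simulated data. CPM use TMM-adjusted library sizes. SEs were derived from the log2 fold change and F (absolute value divided by the root of F). Alternatives used DESeq2 1.42.0, limma 3.58.1, other scalings and filters, an exon length offset (loess span 0.3) and left-out libraries. Replicate numbers, given in accession order, are only names. Floors and the exact intervals of pooled ratios cover counting error only. The permutation tests of marker shares cover the spread between libraries.

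All members are named. Values per library are given for the 10 members with the smallest p, the 8 highest per kb, and the Degs, Sptlc, Alox and Elovl genes. Up to 4 genes per pathway list, those with the smallest p, could be named. Among the regulators, Rora was added for its lack of overlap, and Grhl3 and Zfp750 for contrast. Members and lists were chosen with earlier results of these data known. Promoter sequences are RefSeq's on GRCm38.p6; Asah1, Fa2h, Aloxe3 and Dgat2 had no entry.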

Additional observations from a re-analysis of the deposited data

Results flagged for a closer look

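Within one genotype, a single library stood apart from the rest for 5 members and 1 marker list, by the gap to its nearest neighbour relative to the whole range (Dixon's 95% limit). Of 76 groups examined 6 were found, where chance gives about 1 in 20, or 3.8. Fa2h reached 63.3 CPM in ko/ko replicate 1, with 27.9 to 32.3 in the other ko/ko libraries. Aloxe3 reached 7.57 CPM in the same library, with 2.98 to 3.05 in the others. In ko/ko replicate 3, Elovl1 was low at 113 CPM, with 142 to 146 elsewhere, and Slc27a4 was high at 32.0 CPM, with 22.5 to 24 elsewhere. Pnpla1 was high in wt/wt replicate 1, at 1.93 CPM against 0.625 to 0.977. The basal keratinocyte share of wt/wt replicate 2 was 0.331%, with 0.139% to 0.193% in the other wt/wt libraries. The spike-in sequences, which no comparison uses, gave 6 counts for wt/wt replicate 1 and 1 to 3 for every other library.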

How the results depend on the processing

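The members' log2 fold changes gave 530 values over 19 alternatives; 501 kept their direction and side of the threshold, 28 changed sign and 1 (Abca12 by limma voom) newly passed, so that 1 member was then called higher. For 20 of the 28 members no alternative changed the sign. Sign changes outside the left-out libraries were Elovl1 at 0.0053 (upper-quartile factors), 0.077 (library totals), 0.068 (voom) and 0.012 (without the 3 libraries richest in Gm10800, wt/wt replicate 1 and ko/ko replicates 1 and 4, chosen after seeing the data). Slc27a4 was 0.048 with library totals. Far2 was -0.016 without a filter, -0.11 with the exon length trend removed, -0.0015 by voom and -0.013 without the 3 libraries. Pla2g4e was -0.10 with the length trend removed, and Fa2h -0.20 by voom and -0.20 without the 3 libraries. Library totals moved the median of all genes by 0.11. With each library left out in turn, the values ranged from -0.58 to 0.83 for Pla2g4e, -0.0795 to 0.12 for Elovl1, -0.045 to 0.10 for Far2, -0.40 to 0.15 for Pnpla1, -0.23 to 0.0003 for Slc27a4, -0.18 to 0.31 for Fa2h, -0.70 to 0.10 for Cyp4f39 and -0.0182 to 0.22 for Elovl6; the members' median ranged from -0.25 to -0.15. Genes called higher over the whole table were 1 in the edgeR test, 4 with library totals, 26 without a filter (2 lower), 0 with the length trend removed, 507 by DESeq2 (174 lower), 1217 by voom (585 lower), 7 without the 3 libraries and 0 to 12 with 1 library left out, 12 without ko/ko replicate 4; the cause was not tested. No paired analysis was possible because the labels give no replicate numbers. The 3 members not tested had 21 to 45 counts over all libraries, which limits their ratios.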
